A study of Mus musculus with 6 samples.

Results

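The 10 genes described here are growth factors of the epidermal growth factor (EGF) family and the ErbB receptors they act through, read from RNA sequencing of mouse mammary gland. They were taken by symbol: the EGFR ligands Areg, Egf, Ereg, Hbegf, Tgfa and Btc, the neuregulin Nrg1, and the receptors Egfr, Erbb2 and Erbb3. All 10 were found among 17464 gene symbols in each library. The glands came from C57BL/6 mice of WT genotype at postnatal day 45, with 3 untreated libraries and 3 libraries from glands given recombinant mouse CXCL14 protein, a chemokine. The sources used here do not give the dose, route or duration of the treatment, the sex of the mice or the number of animals behind a library. P-values therefore measure the spread between these libraries, which may be partly technical.

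EGF family ligands are made as membrane-anchored precursors, and proteases such as ADAM17 cut them from the cell surface. The released ligand brings ErbB receptors together in pairs, which switches on their kinase domains and the ERK and PI3 kinase pathways. In the mouse gland at puberty, amphiregulin, the product of Areg, is made by hormone-sensing luminal cells in response to estrogen. It acts through EGFR in the stroma to drive growth of the ducts. ErbB2 has no known ligand of its own and ErbB3 has little kinase activity, so these receptors signal mainly as partners of other receptors.

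Areg lies on chromosome 5 in a run of ligand genes. In the RefSeq annotation of GRCm38.p6, Epgn, Ereg, Areg and Btc are consecutive protein-coding genes. The sequences of 250 bases before the start of Areg, of its neighbour Btc and of Egfr are shown because Areg was the most abundant ligand here and Btc a scarce one, while Areg and Egfr were high and low in the same libraries. They are from RefSeq, written 5′ to 3′ on the strand of the gene, at chr5:91139349-91139598 (+), chr5:91402995-91403244 (-) and chr11:16751953-16752202 (+) of GRCm38.p6, which is not the build the submitters name.
Areg: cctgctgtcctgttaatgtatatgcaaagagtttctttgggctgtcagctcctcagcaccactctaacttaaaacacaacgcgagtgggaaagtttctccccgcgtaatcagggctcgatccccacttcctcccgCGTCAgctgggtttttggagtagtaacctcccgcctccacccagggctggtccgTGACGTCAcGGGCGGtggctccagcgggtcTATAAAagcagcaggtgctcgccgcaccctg
Btc: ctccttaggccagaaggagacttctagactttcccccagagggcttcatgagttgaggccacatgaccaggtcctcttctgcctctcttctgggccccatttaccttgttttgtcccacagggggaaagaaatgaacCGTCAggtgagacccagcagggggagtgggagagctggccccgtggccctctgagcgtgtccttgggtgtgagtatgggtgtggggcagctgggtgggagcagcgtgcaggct
Egfr: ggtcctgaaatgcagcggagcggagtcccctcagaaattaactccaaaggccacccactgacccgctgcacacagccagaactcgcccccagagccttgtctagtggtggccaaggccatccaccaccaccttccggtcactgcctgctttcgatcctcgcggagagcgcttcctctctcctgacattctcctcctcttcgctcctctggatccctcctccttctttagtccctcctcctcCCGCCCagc
Capitals mark matches, on either strand, to 5 patterns that were searched: the TATA box searched as TATAAA, the cyclic AMP response element as TGACGTCA, its shortened form as TGACG (which also matches inside the full element), the GC box as GGGCGG and the AP-1 site as TGANTCA. The Areg window held a TATA box 31 bases before the start, a GC box at 52 bases and a full cyclic AMP response element at 61 bases, with 1 more match to TGACG outside it. TATAAA is found in 12.4% and TGACGTCA in 1.55% of 32851 windows of the same length. The Btc window held the shortened element TGACG, found in 17.8% of windows, and the Egfr window a GC box, found in 32.7%. TGANTCA, found in 6.75% of windows, had no match in the windows shown. A match of letters is a description and shows no binding.

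Recovered whole reads numbered between 15245981 and 16983352 per library. CXCL14 replicate 1 stood apart from its group and lay close to untreated replicate 1: their mean chi-square per gene over recovered reads was 2.24, against 22.9 to 84.8 for the other 14 pairs, where counting noise alone gives a value near 1. Each comparison is therefore given with all 6 libraries and without CXCL14 replicate 1. The second fit drops the treated library nearest to a control, which by itself makes the groups differ more, so it is no separate evidence. The 10 luminal epithelial markers summed to between 151 and 398 FPKM, and none was at 0 in any library, so luminal epithelial RNA was present. The basal keratin genes were low, with Krt5 at 0.0814 to 1.72 and Krt14 at 0.209 to 2.24 FPKM. Adipoq, an adipocyte marker, was at 1.89 to 11.2 FPKM. The 5 B-cell markers summed to between 1112 and 1345 FPKM, so the tissue also held abundant lymphoid RNA. Because these are whole tissues, fewer cells of a type and less RNA per cell cannot be told apart.

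Areg and Hbegf were the most abundant of the ligand transcripts, Erbb2 and Erbb3 the most abundant of the receptors, and Ereg and Nrg1 were barely detected. Levels are FPKM, fragment numbers scaled by gene length and by library total. Values by library are given in the order of replicates 1, 2 and 3. Median FPKM over the 6 libraries fell in the order Areg (13.3), Hbegf (9.35), Erbb3 (3.34), Erbb2 (3.18), Egfr (1.30), Egf (0.697), Tgfa (0.559), Btc (0.129), Ereg (0.00707) and Nrg1 (0.00398). Among all genes, the median level of Areg stood at the 72.8th percentile and that of Erbb3 at the 48.7th. Neighbours in this order overlapped in their range over the libraries, except Btc and Ereg. Areg exceeded Hbegf in 4 of 6 libraries, and Erbb3 exceeded Erbb2 in 3 of 6, so these orders did not hold across libraries.

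**Figure D1:**
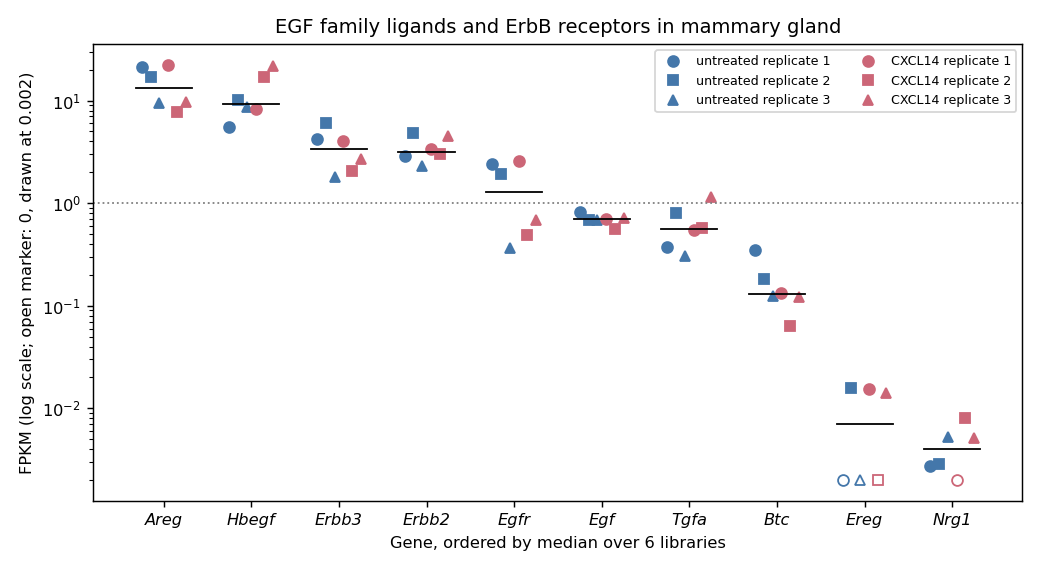
FPKM (log axis) of the 10 genes in each library, with untreated libraries in blue, CXCL14 libraries in red, replicates by marker shape and a line at the median of the 6 libraries. Open markers stand for libraries listed at 0, and the dotted line marks 1 FPKM, the level used to choose genes for testing: Areg, Hbegf, Erbb2 and Erbb3 lie above it in all 6 libraries and Egfr in 3.

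The order of levels also depends on the gene lengths the authors divided by. The steps of whole reads imply a length of 1215 bases for Areg, the same as its merged exons in GENCODE M21, but 2375 bases for Hbegf against 4834 in GENCODE. For Nrg1 the implied length was 22847 bases, 2.21 times the 10351 bases of its merged exons. Rescaled to GENCODE lengths, the median FPKM was 4.60 for Hbegf, 0.297 for Egf and 0.00879 for Nrg1, with Areg at 13.3. Ratios of FPKM between libraries for the same gene do not depend on this length, but differences on the log2(FPKM + 1) scale used below do: with 0.1 in place of 1, that of Egfr went from -0.20 to -0.31 with all libraries and from -0.59 to -0.97 without CXCL14 replicate 1.

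Areg, the ligand of ductal growth, was high in 3 libraries and low in the other 3, and this division ran across the groups. It measured 21.3, 16.9 and 9.55 FPKM untreated and 22.4, 7.78 and 9.72 FPKM with CXCL14. The groups overlapped, with untreated replicate 3 next to CXCL14 replicates 2 and 3, and CXCL14 replicate 1 the highest of all. The values rested on 156 to 423 reads per library. The group means were 15.9 ± 5.93 FPKM without and 13.3 ± 7.92 FPKM with CXCL14 (SD, n = 3 each). On the scale of log2(FPKM + 1), the difference of CXCL14 from untreated was -0.31 with SE 0.42 (limma-trend adjusted p = 0.773), with a 95% interval from -1.32 to 0.69. Without CXCL14 replicate 1 it was -0.74 with SE 0.32 (limma-trend adjusted p = 0.197).

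Hbegf, which encodes heparin-binding EGF-like growth factor, a ligand of EGFR and ErbB4 that macrophages and epithelia make under stress or injury, differed more between groups than Areg, the other ligand tested, without passing the test. Its values were 5.51, 10.1 and 8.59 FPKM untreated and 8.19, 16.8 and 21.7 FPKM with CXCL14. CXCL14 replicates 2 and 3 lay above every untreated library, while CXCL14 replicate 1 lay within the untreated range. The group means were 8.07 ± 2.35 FPKM without and 15.6 ± 6.83 FPKM with CXCL14 (SD, n = 3 each). The log2 difference was 0.81 with SE 0.36, an interval from -0.047 to 1.66 and limma-trend adjusted p = 0.573. Without CXCL14 replicate 1 it was 1.18 with SE 0.25 and limma-trend adjusted p = 0.0569. With untreated replicate 1 left out as well it was 0.96 with SE 0.17 (limma-trend adjusted p = 0.128).

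**Figure D2:**
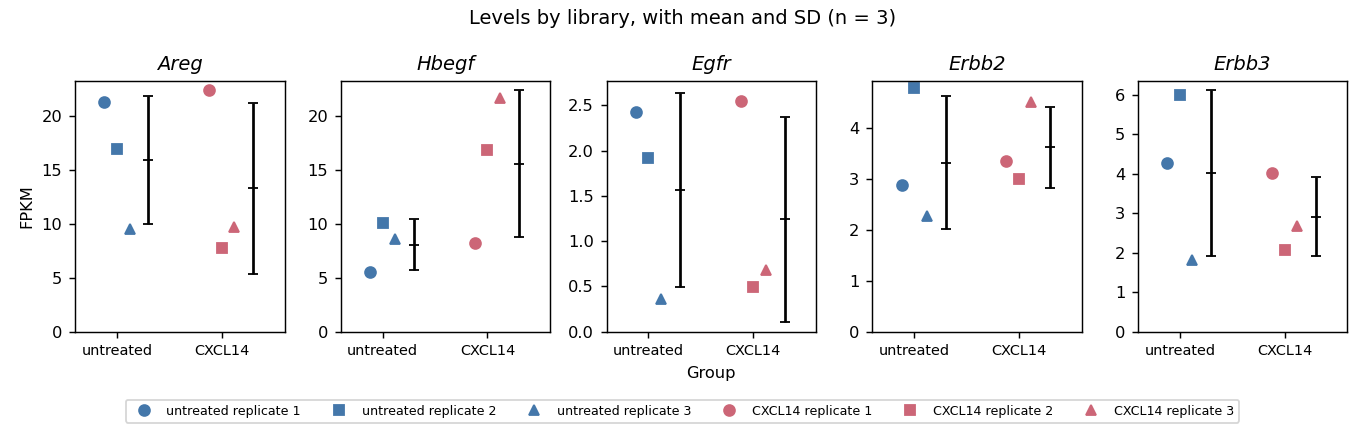
FPKM of the 5 tested genes in each library by group, with marker shape for the replicate and black bars for the mean and SD of 3 libraries. Areg, Egfr and Erbb3 are lower in untreated replicate 3 and CXCL14 replicates 2 and 3 than in the other 3 libraries, while Hbegf is highest in CXCL14 replicates 2 and 3.

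Areg and Hbegf together made up 94.0% to 95.6% of the summed FPKM of the 6 EGFR ligands in every library, and their balance differed between libraries. The ratio of Areg to Hbegf was 3.86, 1.67 and 1.11 untreated and 2.73, 0.462 and 0.448 with CXCL14. Hbegf thus exceeded Areg in CXCL14 replicates 2 and 3 and in no other library. The summed level of the 6 ligands was 28.3, 28.7 and 19.3 FPKM untreated and 31.96, 25.8 and 33.4 FPKM with CXCL14, and these ranges overlapped. The ratio and the sum were looked at after the values were seen and are given without a test. On the GENCODE lengths above, every ratio of Areg to Hbegf would be higher by a common factor.

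**Figure D3:**
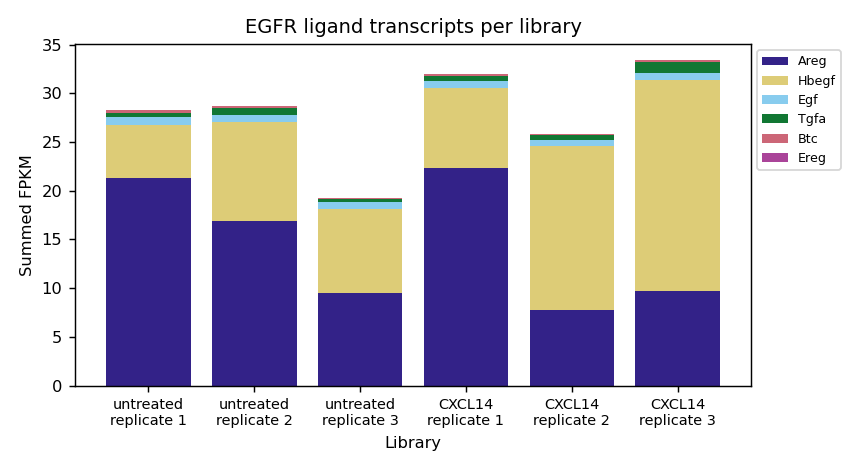
Summed FPKM of the 6 EGFR ligands in each library, stacked by gene. Areg is the larger share in the 3 untreated libraries and in CXCL14 replicate 1, and Hbegf in CXCL14 replicates 2 and 3.

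The other EGFR ligands were low. Tgfa, which encodes transforming growth factor alpha, measured 0.372, 0.811 and 0.303 FPKM untreated and 0.542, 0.576 and 1.15 FPKM with CXCL14, so the groups overlapped. Egf, whose product is the founding member of the family, varied least of the 10 genes relative to its level, by 1.46-fold from the lowest to the highest library. It was at 0.813, 0.678 and 0.685 FPKM without and at 0.709, 0.555 and 0.718 FPKM with CXCL14. Btc, which encodes betacellulin, a ligand of EGFR and ErbB4, was at 0.350, 0.181 and 0.125 FPKM without and at 0.134, 0.0632 and 0.122 FPKM with CXCL14, on 3 to 16 reads per library. At this depth the difference between the Btc groups rests on few reads.

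Ereg, which encodes epiregulin, and Nrg1, a ligand of ErbB3 and ErbB4, were at the limit of detection. Ereg had 1 read in untreated replicate 2, in CXCL14 replicate 1 and in CXCL14 replicate 3, and 0 reads in the other 3 libraries. A count of 0 allows up to 3 reads, which for Ereg is 0.0457 FPKM in untreated replicate 1. Nrg1 had 1, 1 and 2 reads in the untreated libraries and 0, 3 and 2 reads with CXCL14, in order of replicate. No difference between groups was detectable at this depth for either gene. Counting limits of this kind cover counting error only.

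Erbb3, the receptor for neuregulins, followed the same division of libraries as Areg. It measured 4.26, 6.00 and 1.81 FPKM untreated and 4.02, 2.06 and 2.67 FPKM with CXCL14. Untreated replicate 3 was the lowest of all and untreated replicate 2 the highest, so the untreated range enclosed the whole CXCL14 range. The log2 difference was -0.29 with SE 0.35 (limma-trend adjusted p = 0.748), and -0.49 with SE 0.39 without CXCL14 replicate 1 (limma-trend adjusted p = 0.431).

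Egfr, the receptor for the EGF-like ligands, varied most within a group among the tested genes. It measured 2.42, 1.92 and 0.362 FPKM untreated, a 6.70-fold range, and 2.55, 0.494 and 0.680 FPKM with CXCL14. Both groups held high and low libraries, and untreated replicate 3 was the lowest of all. The log2 difference was -0.20 with SE 0.45 and an interval from -1.28 to 0.88 (limma-trend adjusted p = 0.865). Without CXCL14 replicate 1 it was -0.59 with SE 0.41 (limma-trend adjusted p = 0.373). Its sign turned when untreated replicate 1 or CXCL14 replicate 2 was left out.

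Erbb2, the partner receptor, did not divide the libraries in this way. It measured 2.88, 4.79 and 2.29 FPKM untreated and 3.37, 3.00 and 4.53 FPKM with CXCL14. The groups overlapped, with the highest and the lowest value both in untreated libraries. The log2 difference was 0.13 with SE 0.24 and an interval from -0.44 to 0.69 (limma-trend adjusted p = 0.836), and it was 0.16 with SE 0.28 without CXCL14 replicate 1 (limma-trend adjusted p = 0.721). Its sign turned when untreated replicate 3 or CXCL14 replicate 3 was left out. The ratio of Erbb2 to Egfr was 1.19, 2.501 and 6.32 untreated and 1.32, 6.07 and 6.65 with CXCL14.

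Of the 10 genes, 5 were at 1 FPKM or more in 3 libraries or more and were tested: Areg, Hbegf, Egfr, Erbb2 and Erbb3. Limma-trend called 0 of these 5 with all 6 libraries, against 0% of 11516 genes (0 genes, with 895 at an unadjusted p under 0.05 and 0 called by voom on recovered reads). Of the 5, 0 had an unadjusted p under 0.05. Without CXCL14 replicate 1 it called 0 of the 5, beside 5.18% of all genes (249 higher and 348 lower, or 321 and 117 with median-ratio scaling), and with both libraries numbered 1 left out 0 of the 5, beside 0.13% of all genes. Groups did not overlap for 0 of the 5 with all libraries, against 13.1% of all genes, and for 1 of the 5, Hbegf, without CXCL14 replicate 1, against 48.4%. With the filter on low values removed, the other 5 genes had log2 differences between -0.14 (Btc, SE 0.07) and 0.23 (Tgfa, SE 0.18), and none was called.

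**Figure D4:**
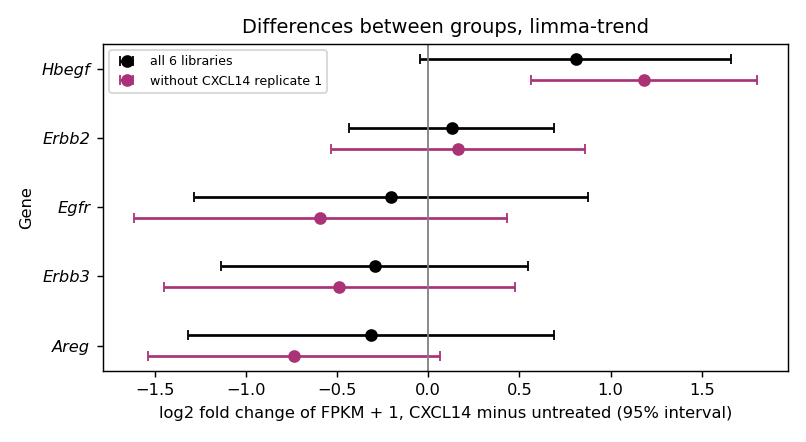
Log2 fold change of FPKM + 1, CXCL14 minus untreated, for the 5 tested genes, with 95% intervals from limma-trend, for all 6 libraries (black) and without CXCL14 replicate 1 (purple). With all libraries every interval includes 0, and without CXCL14 replicate 1 that of Hbegf lies above 0, although its adjusted p was 0.0569.

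Summed markers of fibroblasts, macrophages and mast cells moved with Areg and Egfr across the libraries. The 7 fibroblast markers, none at 0 in any library, summed to 726, 597 and 68.4 FPKM untreated and to 684, 59.2 and 78.4 FPKM with CXCL14. The 8 macrophage markers summed to between 90.7 and 303 FPKM without and between 48.8 and 303 FPKM with CXCL14. The 7 listed mast cell and basophil markers summed to between 13.3 and 82.4 and between 15.8 and 85.7 FPKM, with Ms4a2 at 0 in CXCL14 replicate 2. All 3 sums were high in untreated replicates 1 and 2 and CXCL14 replicate 1 and low in the other 3 libraries, as Areg, Egfr and Erbb3 were. Not every marker followed its sum. Mcpt8, of the mast cell and basophil list, was at 0.150, 0.388 and 0.357 FPKM untreated and 0.0766, 0.723 and 0.836 FPKM with CXCL14. Mertk, of the macrophage list, was also highest in CXCL14 replicate 3, at 4.08 FPKM. In these lists 0 markers of 7, 1 of 8 and 0 of 4 tested had a positive log2 difference, beside 37.2% of all tested genes. Of these markers 0 were called. The Schwann cell markers, at 39.4, 48.9 and 25.7 FPKM untreated and 37.6, 18.0 and 26.0 FPKM with CXCL14, and the skeletal muscle markers, at 20.9, 32.9 and 14.6 and at 27.7, 8.40 and 11.01 FPKM, had the same high and low libraries. The part of these cells in the values of Areg, Egfr and Erbb3 was not tested.

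The luminal markers summed to 302, 398 and 151 FPKM untreated and to 320, 275 and 349 FPKM with CXCL14. Untreated replicate 3 was thus lowest in luminal markers as well as in Erbb2 and Erbb3. The difference of Areg from the mean of the 10 luminal markers, on log2(FPKM + 1), was 0.31, -0.37 and 0.08 untreated and 0.24, -1.08 and -1.09 with CXCL14. For Erbb3 this difference lay between -1.82 and -1.73 in untreated libraries and was -1.98, -2.60 and -2.64 with CXCL14. Set against luminal markers, then, Areg and Erbb3 were lowest in CXCL14 replicates 2 and 3, while Erbb2 in those libraries was at -2.22 and -2.05, against -2.22 to -1.60 untreated. These differences were formed after the values were seen and are given without a test.

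Hbegf was high where the summed neutrophil markers were high, in CXCL14 replicates 2 and 3. The 8 neutrophil markers summed to 41.1, 20.02 and 9.51 FPKM untreated and to 34.4, 279 and 379 FPKM with CXCL14, with Camp and Mmp8 at 0 in some libraries. Cxcr2, also in the list, did not follow the sum, at 0.444, 0.125 and 0.134 FPKM untreated and 0.226, 0.194 and 0.412 FPKM with CXCL14. Of the 6 neutrophil markers tested, limma-trend called 0 in the fit of 6 libraries. It called 5 higher once CXCL14 replicate 1 was left out, when 2.16% of all genes were called higher. With untreated replicate 1 left out as well 4 were called higher (S100a8, S100a9, Retnlg and Ltf), beside 0.13% of all genes called. The 8 adipocyte markers summed to between 939 and 1952 FPKM without and between 1011 and 3099 FPKM with CXCL14, and the 8 blood endothelial markers to between 359 and 746 and between 363 and 1086 FPKM. Both sums were highest in CXCL14 replicate 3, as Hbegf was, but CXCL14 replicate 2 lay within the untreated range. Most of the adipocyte sum was 1 gene, Fabp4, at 880 to 1874 FPKM untreated and 950 to 2968 FPKM with CXCL14. Adipoq was at 1.89 to 11.2 and Plin1 at 0.665 to 2.81 FPKM over the 6 libraries. The 6 T-cell markers were lowest in CXCL14 replicates 2 and 3, at 617, 495 and 616 FPKM untreated and 570, 342 and 286 FPKM with CXCL14. Of these 6, 0 were called with all libraries and 4 fell without CXCL14 replicate 1 (Cd3e, Cd4, Cd8a and Cd8b1), beside 3.02% of all genes called lower, and 0 with untreated replicate 1 left out as well. The summed macrophage markers were lowest in the pair of libraries where Hbegf was highest, as were Adgre1, Csf1r, C1qa, C1qc and Mrc1. Cd68 was lowest in untreated replicate 3, and C1qb there was below CXCL14 replicate 3. Mertk was highest in CXCL14 replicate 3. The part of these cells in the Hbegf values was not tested.

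**Figure D5:**
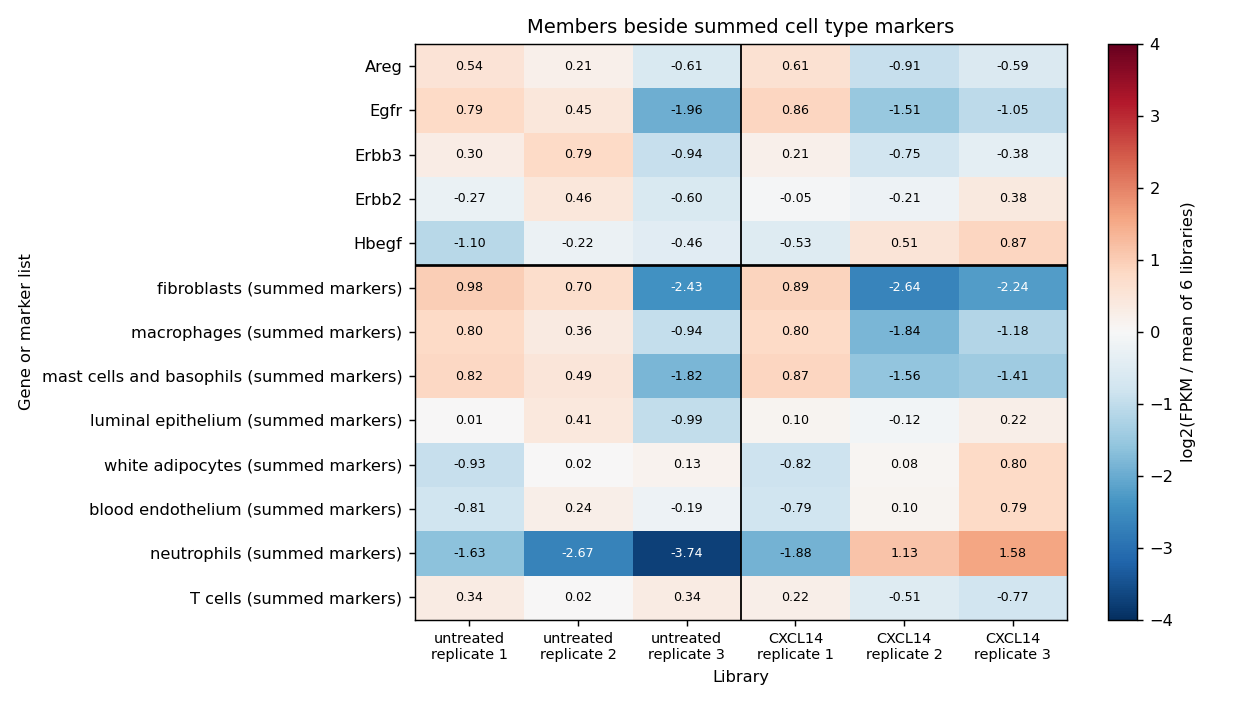
Log2 of FPKM over the mean of the 6 libraries for the 5 tested genes (top) and for summed markers of 8 cell types (bottom), with libraries in columns and the printed value in each cell. Areg and Egfr share their high and low libraries with the fibroblast, macrophage and mast cell sums, from 0.79 for Egfr and 0.98 for fibroblasts in untreated replicate 1 to -1.96 and -2.43 in untreated replicate 3.

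The rest of the EGF family was low. Of the 5 other family genes looked for, 4 were in the table and 0 passed the filter; Nrg3 was not analysed here. Nrg4, a neuregulin known from adipose tissue, measured 0.816, 1.12 and 0.559 FPKM untreated and 1.01, 0.329 and 0.229 FPKM with CXCL14. Nrg2 was at 0.282, 0.135 and 0.0962 FPKM without and at 0.214, 0.0418 and 0.0269 FPKM with CXCL14. Both were lowest in CXCL14 replicates 2 and 3, with overlapping groups. Epgn, which encodes epigen, another EGFR ligand, was at 0.222, 0.191 and 0.316 FPKM without and at 0.113, 0.107 and 0.171 FPKM with CXCL14. The Epgn groups did not overlap, but the values rest on 3 to 9 reads per library, and with the filter removed its log2 difference was -0.14 with SE 0.05 (limma-trend adjusted p = 0.661). Erbb4, the remaining receptor, had 3 to 12 reads per library.

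Genes that release the ligands were expressed in all libraries, and none passed the test. Of 12 genes of ligand shedding and processing, 11 were tested, 6 had a positive log2 difference and 0 were called in either fit, with a median of 0.11 beside -0.064 over all tested genes. Of all tested genes, 37.2% had a positive difference, or 52.4% with median-ratio scaling. Rhbdf2, which encodes iRhom2, a partner that carries ADAM17 to the cell surface, measured 17.2, 15.6 and 17.0 FPKM untreated and 18.9, 21.7 and 21.6 FPKM with CXCL14. All CXCL14 libraries lay above all untreated ones, beside 13.1% of all tested genes without overlap in either direction. The log2 difference was 0.31 (SE 0.10, limma-trend adjusted p = 0.573). The protease genes Adam9 and Nrd1 had log2 differences of 0.26 (SE 0.16) and 0.11 (SE 0.09).

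Downstream of the receptors, 0 of 26 adaptor and relay genes were called with all libraries. The log2 difference was positive for 9 of the 26, beside 37.2% of all tested genes, with a median of -0.077. Stat3, a transcription factor gene that cytokine and growth factor receptors act on, measured 64.1, 69.7 and 64.2 FPKM without and 66.4, 102 and 104 FPKM with CXCL14, replicate 1 lying inside the untreated range. It was the only one of the 26 called without CXCL14 replicate 1, where it rose by a log2 difference of 0.63 (SE 0.09, limma-trend adjusted p = 0.0323), beside 2.16% of all genes called higher. With untreated replicate 1 left out as well the call was lost (limma-trend adjusted p = 0.141). With all libraries its difference was 0.42 (SE 0.18, limma-trend adjusted p = 0.573). Grb2, the adaptor that links receptors to RAS, and Map2k1, a kinase above ERK, had differences of -0.32 (SE 0.12) and -0.24 (SE 0.11), neither called in either fit. For both genes all CXCL14 libraries lay below all untreated ones, beside 13.1% of all tested genes without overlap in either direction.

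Of 19 feedback inhibitors, 13 had a positive log2 difference, beside 37.2% of all tested genes, with a median of 0.12. With all libraries 0 of the 19 were called. Dusp4, a phosphatase that ERK signalling induces and that acts on ERK, measured 25.1, 24.6 and 23.1 FPKM untreated and 29.5, 33.1 and 36.7 FPKM with CXCL14. All CXCL14 libraries, replicate 1 included, lay above all untreated libraries, beside 13.1% of all tested genes without overlap in either direction. The log2 difference was 0.43 (SE 0.11, limma-trend adjusted p = 0.573). Without CXCL14 replicate 1 Dusp4 rose by 0.50 (SE 0.09, limma-trend adjusted p = 0.0450) and was the only inhibitor called, 1 of 19 beside 5.18% of all genes called and 2.16% called higher. The call was lost with no filter on low values (limma-trend adjusted p = 0.0555), with voom on recovered reads (limma adjusted p = 0.05002) and with untreated replicate 1 left out as well (limma-trend adjusted p = 0.155). Cbl and Cblb, ubiquitin ligases that mark active receptors for breakdown, had differences of -0.43 (SE 0.18) and 0.22 (SE 0.11), neither called in either fit.

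Of 12 tested early target genes of EGFR and ERK, which many other stimuli also induce, 10 had a positive log2 difference, with a median of 0.21. Of all tested genes 37.2% were positive. With all libraries 0 of the 12 were called. Fosl1, an AP-1 subunit gene, measured 2.81, 2.29 and 2.00 FPKM without and 2.52, 5.76 and 6.82 FPKM with CXCL14, with CXCL14 replicate 1 inside the untreated range. Its log2 difference was 0.77 (SE 0.30, limma-trend adjusted p = 0.573). Without CXCL14 replicate 1, 2 of the 12 rose, beside 2.16% of all genes, Fosl1 by 1.12 (SE 0.15, limma-trend adjusted p = 0.0308) and Fosb, another AP-1 subunit gene, by 1.13 (SE 0.15, limma-trend adjusted p = 0.0308). Both calls were lost with no filter on low values (limma-trend adjusted p = 0.0534 for Fosl1 and 0.0530 for Fosb) and with untreated replicate 1 left out as well (0.105 and 0.123). The transcription regulator gene Ier2 had a difference of 0.31 (SE 0.14) and was not called in either fit.

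Hormone receptors and factors of ductal growth summed to 39.1, 50.7 and 27.5 FPKM untreated and to 41.8, 25.7 and 31.8 FPKM with CXCL14, high and low in the same libraries as Areg and Erbb3. Of 10 genes, 8 were tested and 2 had a positive log2 difference, beside 37.2% of all tested genes, with a median of -0.13. In either fit 0 of the 8 were called. Prlr, the prolactin receptor gene, measured 9.22, 15.9 and 3.82 FPKM untreated and 9.10, 4.03 and 5.32 FPKM with CXCL14, a difference of -0.46 (SE 0.47). Foxa1, a partner factor of the estrogen receptor, was at 3.21, 6.59 and 1.15 FPKM without and at 3.66, 1.24 and 1.83 FPKM with CXCL14. Both were lowest in untreated replicate 3, with CXCL14 replicate 2 next. Igf1, a stromal growth factor gene, had a difference of 0.18 (SE 0.23). Not every gene of the list followed its sum. Igf1 and Ghr were highest in CXCL14 replicate 3, at 3.04 and 4.06 FPKM. Tnfsf11 was higher in untreated replicate 3, at 7.12 FPKM, than in untreated replicates 1 and 2, at 5.44 and 4.49 FPKM.

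Among the tested genes themselves, profiles over the 6 libraries were most alike for Areg and Egfr, with Pearson's r of 0.98 for log2(FPKM + 1), then for Egfr and Erbb3 (0.88) and for Areg and Erbb3 (0.82). Areg and Hbegf had an r of -0.74. Over all tested genes the profiles most like that of Areg were those of Plekha5, Mmp3 and Rcn3, with r of 0.998, 0.998 and 0.997. For Egfr they were C3ar1, Col16a1 and Apod (r of 0.999, 0.997 and 0.997), and for Erbb3 Postn, Iqsec1 and Prlr (0.997, 0.996 and 0.995). For Hbegf they were Fzd5, Tgoln1 and Usp42 (0.991, 0.990 and 0.989), and for Erbb2 Syne3, Dlg5 and Pigg (0.994, 0.993 and 0.991). Mmp3, a matrix protease gene, measured 7.30, 4.41 and 1.06 FPKM untreated and 6.95, 0.640 and 1.14 FPKM with CXCL14. These correlations span 6 libraries that share the division into high and low described above, and they are descriptions only.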

How the data were processed

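RNA sequencing of 6 mammary gland libraries was used, 3 per group, grouped by the sample titles. The authors deposited FPKM values, already scaled for gene length and library total, for 17464 symbols per library. Per the submitters' processing notes, Bowtie2 2.2.3, HISAT2 2, HTSeq 0.6.0 and build mm8 were used, with no role or order given. The sources used here do not give the annotation or any use of strand, so reads shared by overlapping genes cannot be told apart.

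Within a gene, FPKM values were whole multiples of a step per library, which gave whole reads, up to a common factor per gene, for all 17464 genes within 0.004 reads. Implied gene lengths came from the library total at which the lengths of 400 genes lay nearest to whole numbers (mean distance 0.00500 bases). The 11516 genes at 1 FPKM or more in 3 libraries or more were tested on log2(FPKM + 1) with limma-trend (limma 3.58.1, R 4.3.3) and the Benjamini-Hochberg adjustment over all of them, called at an adjusted p under 0.05. A fold change on this scale understates that of low genes. SEs and 95% intervals are moderated. The code was tested on simulated data.

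All 10 members and the other family genes were named, with the 3 members of smallest p in each of the other 5 pathway lists, any called ones, and the 3 most correlated genes (predicted names left out). Members and lists, with 15 of cell type markers, were chosen with earlier results of these data known. Alternatives were another pseudocount (0.1), no filter, median-ratio scaling, voom on recovered reads, a replicate block and leaving out libraries. Of the cell type lists not described in the report, type 2 innate lymphoid and regulatory T-cell markers summed to 94.2 to 130 FPKM, basal and myoepithelial markers to 15.9 to 49.8, salivary gland markers to 0.529 to 4.41 and epidermal markers to 0.509 to 1.37 over the 6 libraries. Most of the basal and myoepithelial sum was Acta2, at 9.08 to 38.0 FPKM, and Myh11, at 1.71 to 8.81 FPKM, while Krt14 was at 0.209 to 2.24 FPKM.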

Additional observations from a re-analysis of the deposited data

How the results depend on the processing

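The count of called genes, 0 with all libraries, depended on CXCL14 replicate 1. Leaving out each library in turn gave 0 to 597 calls, with 597 (249 higher, 348 lower) only without CXCL14 replicate 1. Without both libraries numbered 1 there were 15 calls, 14 higher and 1 lower. In alternatives chosen after seeing the data, all with CXCL14 replicate 1 left out, there were 594 calls with a pseudocount of 0.1, 438 with median-ratio scaling (321 higher, 117 lower), 419 with voom on recovered reads (190 higher, 229 lower) and 284 with no filter. With all libraries median-ratio scaling moved the median log2 difference over all genes from -0.064 to 0.012. Of the 5 tested genes, 0 were called under each of the 16 alternatives run; the other 5 entered only those with no filter, where 0 were called. Over these 16, the log2 difference ranged from 0.53 to 1.31 for Hbegf (limma adjusted p from 0.0514 to 0.990), from -0.79 to -0.030 for Areg, from -0.66 to -0.0053 for Erbb3, from -0.9997 to 0.057 for Egfr (lowest with voom without CXCL14 replicate 1) and from -0.91 to 0.039 for Foxa1. Leaving out 1 library at a time, it ranged from -0.61 to 0.057 for Egfr, from -0.049 to 0.36 for Erbb2, from -0.87 to 0.039 for Foxa1 and from -0.033 to 0.37 for Igf1, the 4 genes whose sign turned among the 20 tested genes refitted in this way; low genes outside the filter were not refitted. The cause was not tested.

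The labels do not say whether libraries with the same replicate number share an animal or anything else. Deviations of same-numbered libraries from their group means correlated at 0.69, -0.30 and 0.059 for numbers 1, 2 and 3. The libraries numbered 1 were also the closest pair, with a mean chi-square per gene of 2.24, and why was not tested. Fitting the replicate block left the count of calls at 0. In this balanced layout a block cannot change the log2 differences, so only SEs and p-values could move. With the block Hbegf had a limma-trend adjusted p of 0.65. For Btc, Ereg, Nrg1, Epgn and Erbb4, with at most 16 reads per library, depth limits what could be seen.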
